A study of Rattus norvegicus with 18 samples.

Results

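The regions described here are the stretches of the rat genome whose DNA methylation differed, by the authors' own test, between control male germ cells at gestational day 18 (GD18) and control female germ cells at GD16. The members are all rows that the authors' deposited table lists for this comparison, 1618 regions of 61661 that the study's 4 full tables list in all. Germ cells were sorted from fetal gonads of transgenic Sprague-Dawley rats that carry GCS-EGFP, a reporter that makes germ cells fluoresce, and the labels call them gonocytes. Both groups carried this transgene, came from dams on the control diet (18% of calories from fat) and received no other treatment. Control male GD18 had 4 libraries and Control female GD16 had 3. The rest of the 18 libraries were control males at GD16 (4) and the offspring of dams on a diet with 45% of calories from fat, 4 male and 3 female libraries at GD16. Each diet group had 5 dams, and no label says which libraries came from separate litters. Genomic DNA was captured with a rat methylation panel, so only panel regions were measured.

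The males were studied 2 days later in gestation than the females, so sex and day cannot be told apart in this comparison. The study also re-analysed 4 libraries of another project, without naming the group they form in the text used here, so the groups may differ in project as well; its part in the results was not tested. The tables hold the authors' mean methylation per group and region, the percentage of cytosines at CpG sites that were methylated. The value in each library, the spread between libraries and the read depth behind a level are unknown here. An intermediate mean can come from partial methylation in all cells or from full methylation in some of them, and these values do not separate such cases. The identity of the sorted cells could not be checked against marker genes, because no expression was measured.

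Methylation of cytosine at CpG sites is a stable mark that, at promoters and transposons, is mostly associated with silencing. Primordial germ cells erase most of this mark as they migrate to and settle in the gonad. In the mouse, male germ cells then stop dividing and begin to regain methylation before birth, while female germ cells enter meiosis in the fetal ovary and regain it only in the growing oocyte after birth. The comparison sets the methylation of fetal testis germ cells beside that of earlier ovary germ cells.

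A few regions lay at promoters whose sequence helps to picture what was measured. The lines below give RefSeq promoter windows, 250 bases before to 50 bases after the start of the gene, in the GRCr8 build. CpG sites, written CG, are in capitals. Asphd2 had the largest promoter difference towards lower methylation in GD18 males, Pola2 had the promoter region with most CpG sites, Nap1l5 is imprinted, and Stoml3 was 1 of 3 promoters that were higher. The windows are chr12:49908289-49908588 on the plus strand for Asphd2, chr1:212680493-212680792 on the minus strand for Pola2, chr4:89354655-89354954 on the minus strand for Nap1l5 and chr2:139722720-139723019 on the plus strand for Stoml3. The measured regions are given in the coordinates of the authors' files, for which no label or header used here names a build. A window therefore need not be the stretch that was measured.
Asphd2: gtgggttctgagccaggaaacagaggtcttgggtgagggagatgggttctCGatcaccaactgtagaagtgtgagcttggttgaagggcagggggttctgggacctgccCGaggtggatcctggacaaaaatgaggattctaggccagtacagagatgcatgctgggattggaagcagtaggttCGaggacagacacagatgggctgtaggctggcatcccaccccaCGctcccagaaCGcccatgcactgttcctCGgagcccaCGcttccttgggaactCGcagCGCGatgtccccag
Pola2: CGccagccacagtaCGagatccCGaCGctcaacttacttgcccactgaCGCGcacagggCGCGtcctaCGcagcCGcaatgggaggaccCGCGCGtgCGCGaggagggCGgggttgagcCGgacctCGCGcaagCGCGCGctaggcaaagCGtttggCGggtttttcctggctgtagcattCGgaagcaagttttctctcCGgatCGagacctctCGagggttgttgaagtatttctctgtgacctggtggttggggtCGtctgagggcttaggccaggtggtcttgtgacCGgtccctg
Nap1l5: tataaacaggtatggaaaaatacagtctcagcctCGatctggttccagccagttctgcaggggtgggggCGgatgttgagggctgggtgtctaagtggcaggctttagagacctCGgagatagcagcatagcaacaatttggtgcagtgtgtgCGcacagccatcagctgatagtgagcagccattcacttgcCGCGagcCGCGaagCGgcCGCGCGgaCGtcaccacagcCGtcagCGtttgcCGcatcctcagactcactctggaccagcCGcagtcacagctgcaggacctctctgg
Stoml3: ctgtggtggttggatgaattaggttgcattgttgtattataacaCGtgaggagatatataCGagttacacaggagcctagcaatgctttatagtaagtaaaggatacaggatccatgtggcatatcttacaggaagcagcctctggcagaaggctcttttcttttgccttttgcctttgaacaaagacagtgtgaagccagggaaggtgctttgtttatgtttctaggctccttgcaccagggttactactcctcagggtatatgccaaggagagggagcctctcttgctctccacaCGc
The windows hold 10, 30, 17 and 3 CG in that order. Of 61 genes with a listed promoter region, 43 matched this RefSeq table, and their windows held a median of 20 CG (range 2 to 54). The median over all 33469 promoters was 7.0 CG. At least 10 CG were in 69.8% of the matched windows and in 41.5% of all windows. Only regions with at least 5 CpG sites are in the list.

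Promoter regions of 6 microRNA genes were among the members, all of them lower in GD18 males, as were 92.5% of all members. MicroRNAs are short RNAs that pair with messenger RNAs mainly through the seed, bases 2 to 8, shown in capitals. The mature sequences from RefSeq are shown because these genes name the regions. No seed was shared between them.
rno-miR-412-3p: cUUCACCUgguccacuagccgu
rno-miR-409b: aGGGGUUCaccgagcaacauucg
rno-miR-3579: gCGCAUGUucuauggucaacca
rno-miR-203a-3p: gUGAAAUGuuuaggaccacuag
rno-miR-207: cUUCUCCUggcucuccucccuuu
rno-miR-760-3p: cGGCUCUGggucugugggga
The regions of Mir412 and Mir3581, whose RefSeq mature product is rno-miR-409b, were neighbours on chromosome 6, and that of Mir3579 lay on the same chromosome. Mir412 belongs, in the mouse, to the imprinted cluster between Dlk1 and Dio3. At chr6:133893083-133893263 (Mir412, 7 CpG sites) the group means were 4.2% in GD18 males and 18.2% in GD16 females. At chr6:133893297-133893743 (Mir3581, 15 CpG sites) they were 3.2% and 18.6%, and at chr6:133861222-133861297 (Mir3579, 10 CpG sites) 4.5% and 17.5%. The 3 regions had nearly equal levels within each group. Mir203 (chr6:136704787-136704824) stood at 3.0% and 20.2%, Mir207 (chr5:57028811-57028848) at 2.5% and 28.1%, and Mir760 (chr2:225873557-225873576) at 5.0% and 34.6%. The regions of Mir412, Mir3581, Mir3579 and Mir203 were chosen after their values were seen.

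GD18 male germ cells had little methylation at most listed regions, while GD16 female germ cells were partly methylated there. The authors' deposited table lists 1496 regions as lower and 122 as higher in GD18 males. These were 81.7% and 6.66% of the 1832 regions over which the deposited false discovery rate (FDR, the expected share of false calls) was adjusted, and 88.3% together. The number 1832 was inferred from the deposited p-values and is also the number of regions in the authors' diet table of females, so it may not be the number tested here, and the FDR may not have been adjusted over this comparison alone. The rule for members uses these calls, so nothing is read from those shares. Lower regions were 92.5% of the list (exact Clopper-Pearson 95% interval 91.1 to 93.7, which covers the count of regions only). That interval takes regions as independent, which they are not, and says nothing of the spread between libraries. The smallest deposited p-value was 4.27e-48 and the largest deposited FDR was 0.0497. GD18 males were at or below 5% methylation in 1267 regions (78.3%) and at or below 10% in 1486 (91.8%).

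In the lower regions the GD18 male means had a median of 3.0% (quartiles 2.1 and 4.3) and the GD16 female means a median of 16.5% (quartiles 14.1 and 20.2). The median difference in the authors' deposited table was -12.9 percentage points, with quartiles of -16.5 and -11.0. In the higher regions the medians were 13.15% in GD18 males and 0.95% in GD16 females, who were at 0 in 41 of the 122. The median difference in the authors' deposited table was 11.45 points there. Large differences were nearly all in 1 direction, with 235 lower and 2 higher regions at 20 points or more, and 60 and 1 at 30 points or more. Most members were thus regions of low to moderate methylation in the females and near none in the males.

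**Figure D1:**
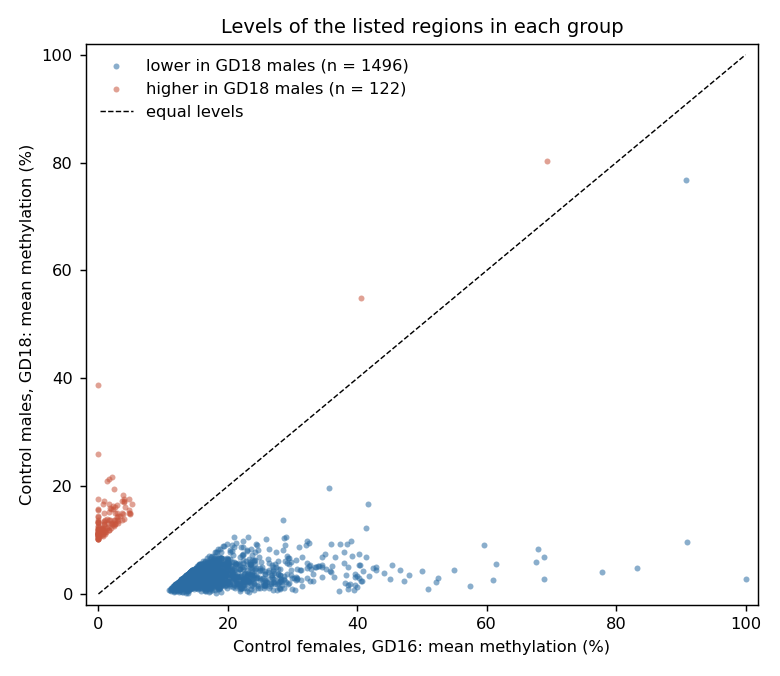
Authors' mean methylation (%) of each listed region in GD16 control females (horizontal) and GD18 control males (vertical), with 1 point per region and a dashed line of equal levels. Most lower regions lie along the bottom (GD18 male median 3.0%) and most higher regions along the left edge (GD16 female median 0.95%), except 3 segments of a scaffold with levels of 40.6% or more in both groups.

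The authors listed regions with a difference of about 10 points or more and at least 5 CpG sites. The smallest difference among the lower regions was -10.0 points in the authors' deposited table, at chr6:131483471-131483785 (7.1% against 17.1%). Among the higher regions the smallest difference was shared by 6 regions, including introns of Lmo2 (14.9% against 4.8%), a transcription cofactor of blood formation, and Gnpat (11.1% against 1.0%), an enzyme of ether lipid synthesis. Values outside these limits were not analysed here. Regions were 20 to 1619 bp long, and 58 were shorter than 50 bp.

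Among the listed lower regions, the median difference was smaller where there were more CpG sites. Lower regions with 5 CpG sites (400) had a median difference of -14.05 points in the authors' deposited table, those with 6 to 9 sites (765) -13.1, those with 10 to 14 (244) -12.0 and those with 15 or more (87) -11.4. A difference of 20 points or more was present in 24.25% of the regions with 5 sites and in 4.6% of those with 15 or more. Among the higher regions 67 (54.9%) had just 5 sites and 5 had at least 10. A level over few sites rests on fewer measurements, and the depth per site is unknown here. The list holds only regions that passed the authors' limits on difference and FDR, which may shape this order. The part of these limits and of site number in the large differences was not tested.

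**Figure D2:**
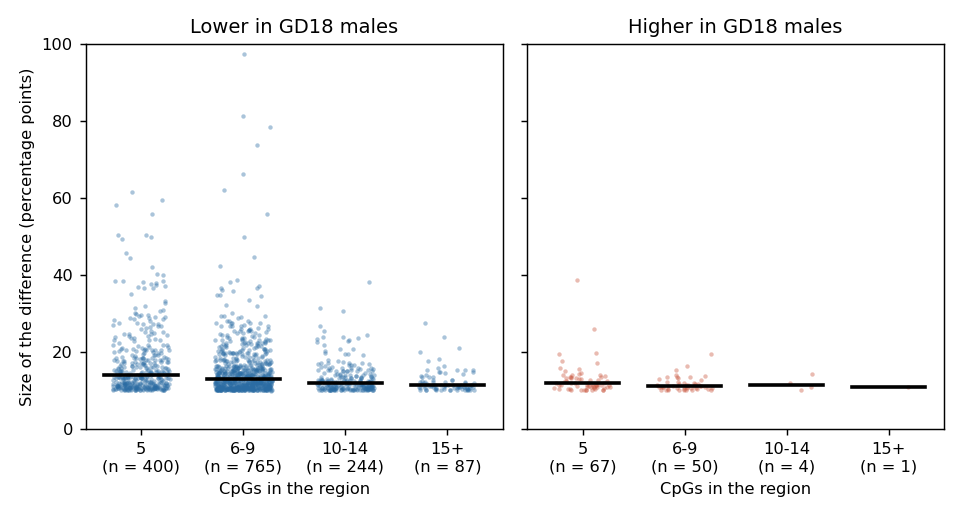
Size of the difference in the authors' deposited table (percentage points, vertical) by the number of CpG sites in the region (horizontal), with 1 point per region and a bar at the median, lower regions left and higher regions right. The median for lower regions goes from 14.05 points at 5 sites to 11.4 points at 15 or more.

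Regions rich in CpG sites average the level over many positions. The member with most sites, 36, was the intergenic chr9:46951699-46952283 at 1.9% in GD18 males and 12.3% in GD16 females. An intron of Mapre2, a protein that binds growing microtubule ends, had 32 sites at 3.0% and 13.2% (chr18:15242921-15244105). The Pola2 promoter had 26 sites at 1.5% and 13.0% (chr1:221321240-221321868); Pola2 is a subunit of the DNA polymerase that starts replication strands. An exon of Slc8a2, a sodium and calcium exchanger, had 25 sites at 2.1% and 15.6%. An exon of Slc25a29, a mitochondrial amino acid carrier, had 23 sites at 2.0% and 15.9%. All 5 stood within a few points of each other in each group. The higher regions with most sites at genes were introns of Taok3, a kinase (11 sites, 13.8% against 1.8%), and Socs5, a cytokine signalling inhibitor (10 sites, 11.1% against 0.0%). The intergenic chr14:86905901-86906440 also had 10 sites and was higher, at 11.9% against 1.6%.

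The largest differences at genes were regions of few sites in which the female means lay between 47.2% and 68.9%. An intron of Rimbp2, which links calcium channels to the release site of synapses, was at 6.8% in GD18 males and 68.9% in GD16 females. Introns of Zfp521, a zinc finger transcription factor, and Trim2, a ubiquitin ligase, stood at 6.0% against 67.6% and 8.4% against 68.0%. Trim2 had a deposited FDR of 0.0495 in the authors' deposited table, close to the largest listed. The end of Siah3 was at 1.4% against 57.4%, and 2 intronic regions of Kazn, a cell junction protein, were at 9.1% against 59.6% and 2.9% against 52.4%. An exon of the potassium channel gene Kcnd2 was at 4.5% against 54.9%, a Fgfr4 exon (a fibroblast growth factor receptor) at 2.3% against 52.2%, the 5′ UTR of Klhdc8a at 4.3% against 50.0% and an intron of Nos1ap at 2.5% against 47.2%. These 10 regions had 5 to 9 CpG sites each.

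Adjacent segments did not always share such a level. The Kcnd2 exon segment at 54.9% in the females (chr4:48310557-48310599, 5 sites) lay directly beside a segment of 15 sites (chr4:48310601-48311039) at 2.5% in GD18 males and 16.9% in GD16 females. In Map2k6, a stress kinase gene, a segment of 5 sites at 2.0% and 26.7% lay beside one of 14 sites at 2.3% and 12.9%. In the chaperone gene Hspa8 the neighbours were close, at 2.8% and 17.5% and at 1.3% and 18.3%. Of all members, 8 pairs lay within 10 bp of each other and 24 pairs within 1000 bp, 2 of these with opposite directions. The female levels of neighbours differed widely in Kcnd2 and Map2k6 and were close in Hspa8. These pairs were chosen after their values were seen.

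Some of the most extreme regions carried no gene name. The intergenic chr3:62078638-62078845 (9 sites) was at 2.7% in GD18 males and 100% in GD16 females. The intergenic chr9:37957663-37957702 was at 9.6% and 90.9%, chr14:2725279-2725379 at 4.8% and 83.3%, chr8:112202060-112202230 at 4.0% and 77.8% and chr1:140520305-140520386 at 2.7% and 68.9%. The females thus ranged up to full methylation at single regions, but reached 50% in only 19 of 1618. GD18 males reached 50% in 3, all within about a kilobase of the unplaced scaffold KL568273.1, which were singled out after their values were seen. There the levels in GD18 males and GD16 females were 54.9% and 40.6% at bases 2165 to 2334, 76.7% and 90.8% at 2718 to 2768, and 80.3% and 69.3% at 2833 to 3149. The direction changed between neighbouring segments of that scaffold.

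Among the higher regions at genes, the widest gap was in an intron of Leo1, a subunit of the Paf1 elongation complex, at 25.9% in GD18 males and 0.0% in GD16 females. An exon of Qprt, an enzyme of NAD synthesis, was at 21.7% and 2.1%. An intron of Mageb4, a germ-cell gene on the X chromosome, was at 17.3% and 0.9%, and an exon of Cnga1, which encodes a light-response channel of the retina, at 16.6% and 0.7%. Introns of Nup93, a nuclear pore protein, and Abcb10, a mitochondrial transporter, were at 16.6% against 1.6% and 16.3% against 2.2%. Nt5dc3, Wdr70, Bcar3 and the lipid enzyme gene Dgat2 had 14.2% to 18.3% in the males and 0.0% to 3.8% in the females. The intergenic chr14:87270059-87270180, at 38.7% and 0.0%, was above all of these. Of the 122 higher regions, the 120 on chromosomes had 0.0% to 5.2% in the females and 10.2% to 38.7% in GD18 males; the other two were the scaffold segments above.

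Lower and higher regions were spread differently over genes. Of the lower regions 837 (55.9%) were intergenic, 419 (28%) intronic, 112 (7.49%) exonic and 65 (4.34%) at promoters. Of the higher regions 41 (33.6%) were intergenic, 65 (53.3%) intronic, 10 (8.2%) exonic and 3 (2.46%) at promoters. Medians of the lower regions were 2.8% and 16.3% between genes, 3.4% and 16.7% in introns and 3.0% and 16.8% at promoters (GD18 males first). The limit on the difference narrows the levels that a listed region can have, so the likeness of these medians is no result. The regions are not replicates, so no test of these shares was made.

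**Figure D3:**
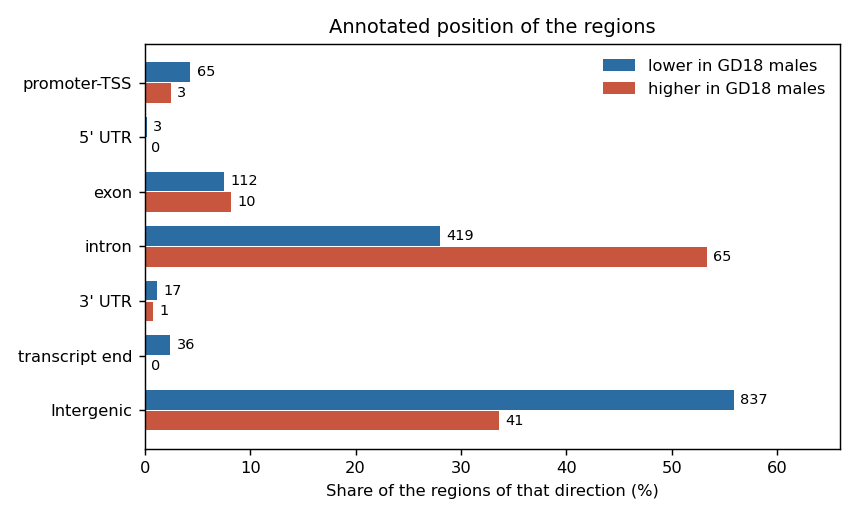
Share (%) of the lower and of the higher regions that the authors' annotation puts in each kind of position, with the number of regions beside each bar; regions without annotation and in non-coding transcripts are left out. Intergenic positions hold 55.9% of the lower and 33.6% of the higher regions, and introns 28% and 53.3%.

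At promoters, Asphd2 had the widest difference, 2.5% in GD18 males and 33.1% in GD16 females over 11 sites (chr12:50268474-50268828), in the gene whose sequence is given above. Mfhas1 was at 9.2% and 37.3%, Cpne3, a calcium-dependent membrane protein, at 3.0% and 29.9%, Mrnip, a DNA repair factor, at 1.2% and 28.7%, Susd4 at 3.8% and 27.7% and Ssbp4 at 1.6% and 25.4%. The Clstn2 promoter (calsyntenin, a synaptic membrane protein) stood out with 16.7% in GD18 males, against 41.7% in GD16 females. The 3 higher promoters were Stoml3, a membrane protein of touch-sensing neurons, at 13.1% and 0.0%, Rab7b, a regulator of endosome transport, at 12.3% and 0.6%, and a gene without a symbol in the table used here at 13.4% and 0.0%.

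CpG islands, dense runs of CpG sites that usually stay unmethylated, held 20 lower and 0 higher regions, where 92.5% of all members were lower. The island medians were 1.75% in GD18 males and 21.25% in GD16 females, whose island levels ran from 12.6% to 40.6%. The widest gap was at the intergenic chr2:150728984-150729031 (2.5% against 40.6%), followed by chr16:82473906-82473959 (3.2% against 34.6%) and chr1:104196893-104197101 (1.8% against 29.3%). An island in an intron of Cacna1c, the main calcium channel gene of heart muscle, was at 1.8% against 27.6%. These segments were short, with a median of 70.5 bp and 10 sites.

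Annotated repeats were in 73 members, 95.9% of them lower, beside 92.5% of all members. The 70 lower ones had a GD18 male median of 3.05% and a GD16 female median of 16.85%. The 3 higher ones were all short interspersed elements of the Alu family (13.1% to 16.6% against 1.8% to 5.2%). Most members of that kind were lower, with 14 lower regions in the Alu family and 40 in all short interspersed elements. Endogenous retroviruses and related LTR elements, which germ cells usually keep silent by methylation, accounted for 13 lower and 0 higher regions, with medians of 2.6% and 16.9%. The 3 regions of the ERVK family were at 1.5% to 6.3% and 15.4% to 24.2%. Of these, chr1:2642756-2644369 had 22 sites at 4.2% and 15.4%. The 3 LINE-1 regions had more methylation, 4.9% to 19.7% in GD18 males and 20.4% to 35.6% in GD16 females. Among them, chr2:199715693-199716143 was at 19.7%, the highest GD18 male level of any lower region on a chromosome. Repeats were grouped after their values were seen, and reads from near-identical copies may be placed on the wrong one. The same limit holds for Rn5-8s, the 5.8S ribosomal RNA, which is present in many copies and had 3 lower regions at 2.0% to 3.3% and 12.4% to 15.8%.

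On the X chromosome 16 regions were lower and 2 higher, with lower-region medians of 2.7% and 14.85%, beside the autosomal 3.0% and 16.5%. The higher ones were Mageb4 and an intron of Bcorl1, a transcriptional corepressor, at 10.8% and 0.7%. The promoter of Magebl1, of the same gene family as Mageb4, went the other way at 2.4% and 16.3%. Lower regions outnumbered higher ones on every autosome.

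Of the 1618 regions, 690 carried a gene with a symbol, 618 genes in all. Most genes had a single region. Tenm2, a teneurin that connects neurons, had 7, all lower, at 1.0% to 4.4% in GD18 males and 11.5% to 15.6% in GD16 females. Camta1, a calmodulin-binding transcription activator, had 6 lower regions at 1.9% to 7.2% and 15.3% to 23.8%, and Tns3, a focal adhesion protein, had 4 at 3.2% to 5.7% and 16.5% to 21.7%. Regions of the same gene share a locus and the same libraries. Acvr1b, an activin receptor, and Jph3, a junction protein of excitable cells, each had 2 lower regions and 1 higher.

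Meiosis, imprinted and early germ-cell genes had 9 members, all lower, where 92.5% of all members were lower. In all, 8242 genes had a region in any of the 4 full tables. Of them 6.77% had a lower region here, 0.825% a higher one and 7.5% either, against which the share of each list can be set. That share was 20% for meiosis genes, 13.8% for imprinted genes, 20% for pluripotency and primordial germ cell genes, 6.67% for piRNA genes and 5.88% for spermatogenic genes. It was 10.5% for the enzymes below, 16.7% for blood and endothelial genes, 26.2% for synaptic and channel genes and 15.6% for metabolism genes. These shares rest on few genes and were not tested. The median difference over all members was -12.4 points in the authors' deposited table. Of 15 meiosis genes with a region in any of these tables, a lower one was present here for 3, with a median difference of -28.7 points in the authors' deposited table. They were Rec114, needed for meiotic DNA breaks (4.0% in GD18 males and 35.9% in GD16 females), Rec8, the meiotic cohesin (2.6% and 31.3%), and Prdm9, which marks recombination hotspots (1.8% and 14%). Of 29 imprinted genes 4 were members, all lower: Plagl1, a transcription factor of fetal growth (2.5% and 22.3%), Ppp1r9a (2.5% and 21.3%), Asb4 (1.8% and 15.2%) and the Nap1l5 promoter (2.3% and 12.8%). Of 10 pluripotency and primordial germ cell genes 2 were members, Prdm1, which specifies germ cells (3.6% and 18.8%), and Dppa3, which protects maternal methylation in the mouse (3.7% and 14.4%). Tdrd1, a Tudor protein, was the one member of 15 piRNA genes (3.3% and 14.3%), and Mageb4 the one of 17 spermatogenic genes.

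Of 19 genes for methylation and histone methylation enzymes 2 were members. Tdg, a DNA glycosylase that takes part in active demethylation, had neighbouring exon and intron segments at 2.6% and 13.0% and at 3.9% and 14.7%. Kdm4a, a histone demethylase, was higher in GD18 males at 13.0% and 2.1%. None of the 14 somatic gonad genes was a member, and of 12 blood and endothelial genes Runx1 (5.7% and 20%) and Vwf (2.8% and 14.6%) were, both lower. These lists name no cell type, since methylation of a gene does not show its expression.

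Synaptic and ion channel genes had 11 members of 42 genes, with 12 lower and 2 higher regions and a median of -15.1 points in the authors' deposited table. Beside Rimbp2, Kcnd2 and Nos1ap, the lower ones included the synaptic adhesion gene Nrxn2 (2.2% and 25.9%), the sodium channel gene Scn1a (0.7% and 16.5%), the calcium channel gene Cacna1a (5.8% and 18.5%) and the postsynaptic scaffold gene Dlgap1 (9.1% and 20.7%). Scn2a, a sodium channel gene near Scn1a, was higher at 13.3% and 0.0%, as was Cnga1. This list was composed with earlier results of these data known, so its count is no independent evidence. Of 45 metabolism genes 7 were members. Pik3r1, a subunit of the insulin-signalling kinase, was lower at 5.5% and 23.4%, the glycolysis genes Pklr and Pfkp at 4.6% and 18.0% and at 5.0% and 17.1%, and the mitochondrial carrier gene Ucp2 at 1.0% and 14%, while Dgat2 was higher at 15.9% and 1.8%. Of 16 genes of the Pax, T-box and homeobox families, Pax7 (5.1% and 18.4%), Pbx3 (4.1% and 17.4%) and Six4 (1.7% and 13.5%) were lower.

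**Figure D4:**
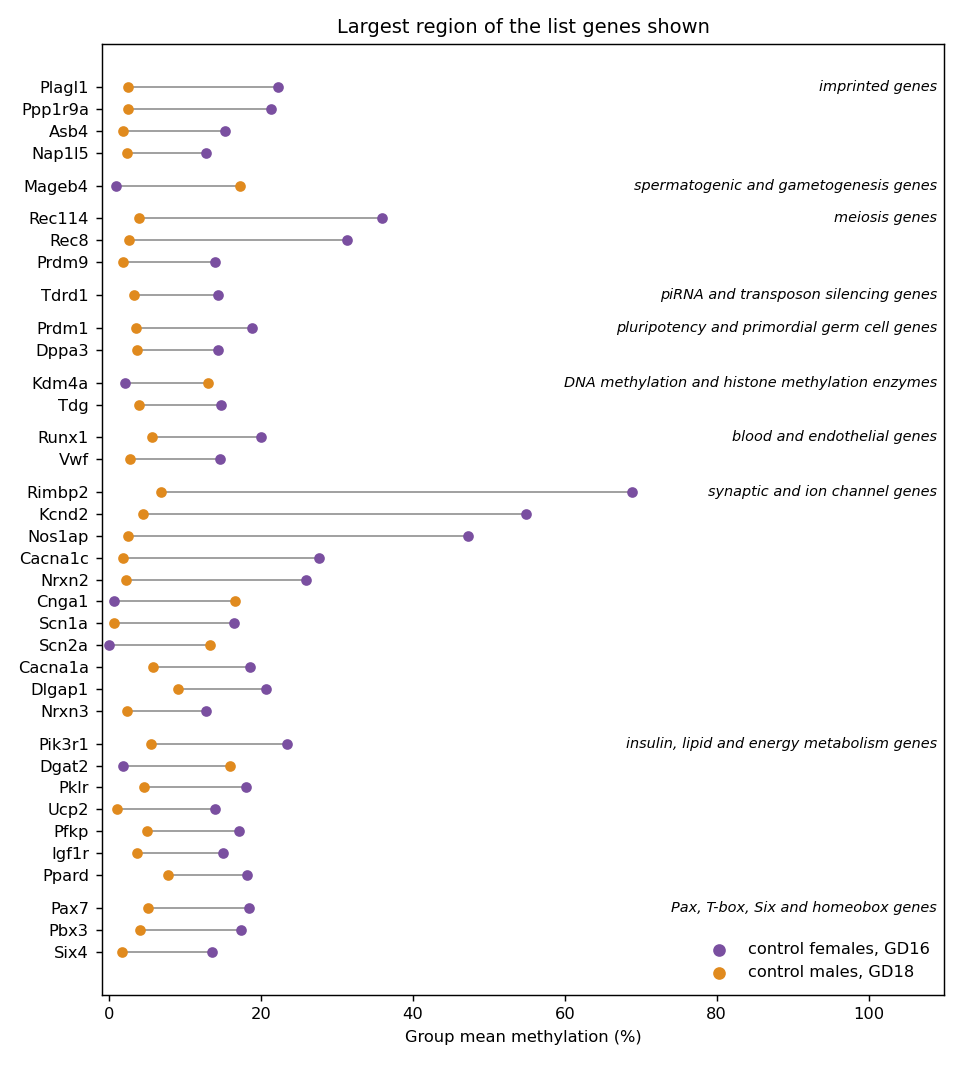
Authors' mean methylation (%, horizontal) of the region with the largest difference in each list gene shown, control females at GD16 in purple and control males at GD18 in orange, joined by a line and grouped by list. Rimbp2 has the longest line, from 6.8% to 68.9%, and in Mageb4, Kdm4a, Cnga1, Scn2a and Dgat2 the male level is the higher one.

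Control males at GD16 could be set beside both groups at 464 regions (28.7%), those with the same coordinates in the authors' table of GD16 males against GD16 females. Both comparisons use the same 3 control female libraries, and the female mean and the number of sites were the same in all 464, so the directions in the 2 tables are not independent. The levels formed 3 sets. At 217 regions, lower here, GD16 males were above the females, with medians of 30.1% in GD16 males, 14.5% in GD16 females and 2.7% in GD18 males. At 151 regions both male groups were below the females, with medians of 8.1%, 28% and 3.1% in that order. At 96 regions both were above, with 22.9%, 1.25% and 13.2%. GD18 males were below GD16 males in 124 of the 151 and in 90 of the 96. In the first set this order of the male groups was fixed by how the set was formed, so it is no result. The 2 male groups differ by day and may differ by project, and no test between them is in the files.

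**Figure D5:**
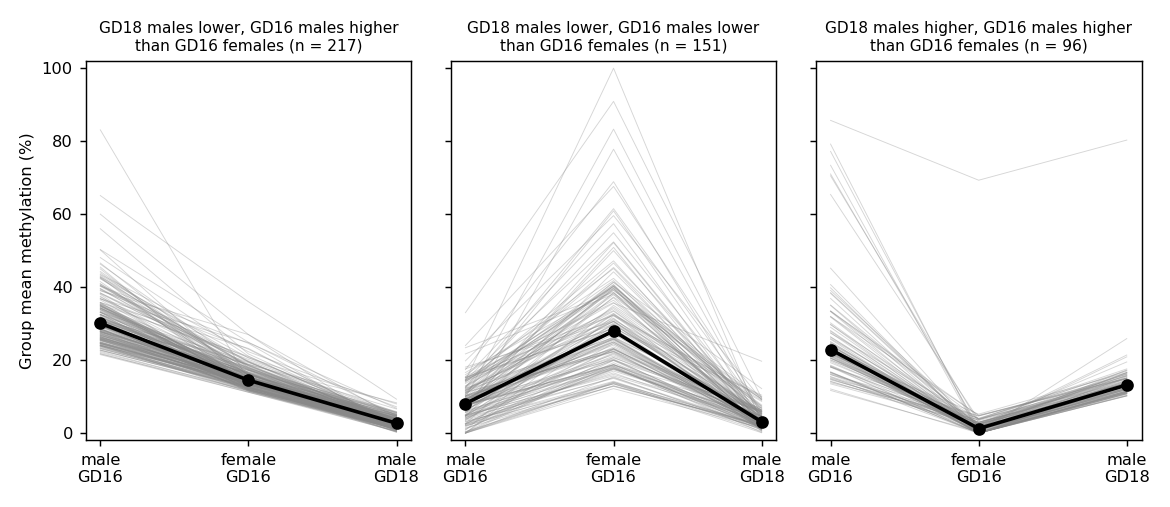
Authors' mean methylation (%, vertical) in the 3 control groups (horizontal: GD16 males, GD16 females, GD18 males) for the 464 regions with the same coordinates in both tables, a thin line per region and a thick line through the medians. GD18 males have medians of 2.7%, 3.1% and 13.2% in the 3 panels, against 30.1%, 8.1% and 22.9% in GD16 males.

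Levels in the 3 control groups are given here for some single regions. The Prkcz intron (a protein kinase C) was at 65.1% in GD16 males, 36% in GD16 females and 9.3% in GD18 males. In a Tns3 intron the same order of groups gave 56.0%, 21.7% and 3.2%, and at the end of Trim71, an RNA-binding protein of early development, 43.5%, 22.3% and 7.2%. The Prkcz, Tns3 and Trim71 regions belong to the first set above, so their order of the male groups was fixed and is no result. Among regions higher here, the Scn2a exon was at 79.2%, 0.0% and 13.3%, the Cnga1 exon at 77.2%, 0.7% and 16.6% and the Stoml3 promoter at 35%, 0.0% and 13.1%. Their GD16 male levels were above the median of 22.9% over the 96 regions where both male groups exceeded the females. Leo1 had the reverse order of males, with 12.1% at GD16 and 25.9% at GD18. The 5 intergenic regions named above as most extreme had 4.8% to 33.0% in GD16 males, below the females in each.

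Females exposed to the high-fat diet also had values at some members. The authors' table of high-fat against control females held 183 regions with the same coordinates, and that comparison shares the control females too. At 178 of them the high-fat females were below the control females, with medians of 2.7% in high-fat females, 20.3% in control females and 3.7% in GD18 males. At 4 both high-fat females and GD18 males were above the control females, and at 1, in Trim71, the high-fat females had 59.8%. Regions were listed in both comparisons against the same control female libraries, so the shared directions are not independent and are no result. The Rec8 exon was at 0.5% in high-fat females, 31.3% in control females and 2.6% in GD18 males. At chr9:37957663-37957702 the levels were 4.1%, 90.9% and 9.6%. The same coordinates appeared in all 3 of these tables for 65 regions, and control females had the highest level of the 4 groups at 46 of them. The medians over these 46 were 30.8% in control females, 9.15% in GD16 males, 3.95% in GD18 males and 2.55% in high-fat females. These 46 were picked for their high control female level, so the place of control females at the top is no result. The tables share the 3 control female libraries, whose single levels are unknown here.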

How the data were processed

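Methyl-Seq capture libraries of sorted fetal rat germ cells were bisulfite sequenced. Bismark 0.19.0 and Bowtie2 were used, per the submitters' processing notes; no source used here names the genome build. The authors segmented the genome and tested segments, per the series design. The deposited values are each group's mean methylation as a fraction (0 to 1), the authors' signed difference as a score, and the deposited p-values and FDR; no values per library, counts or coverage were in the tables used, so the tests planned on counts could not be run. Coordinates are as deposited.

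Fractions were multiplied by 100. Regions were counted by direction, position, CpG number and gene, with medians over regions. The deposited FDR was used as given. The number of regions behind it, 1832, was inferred from the deposited p-values, their ranks and the FDR, taking a Benjamini-Hochberg adjustment. Regions were matched between tables by identical coordinates. Gene IDs were matched to RefSeq GRCr8 names (620 of 655 IDs, 94.7%), from which no coordinates were taken except those of the printed sequences. Computation used pandas 2.3.3 and numpy 2.4.6 in Python 3.11.15, intervals came from scipy 1.17.1 and plots from matplotlib 3.10.9, and the functions were tested on simulated data. Alternatives were other limits on CpG number, difference, FDR and length, merged neighbours, autosomes only and other overlaps.

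Named regions were, in each direction, the 10 largest differences with a gene and the 5 largest without, the 10 with most CpG sites, the 10 largest at promoters or 5′ UTRs, the 5 largest in CpG islands, those of the 5 genes with most regions, of list genes, of the X chromosome and of opposite direction in another table, and those at the limits. The text gives part of these. Neighbouring segments, repeats, scaffold regions, microRNA promoters and genes with regions in both directions were chosen after their values were seen. The members and the 11 gene lists were chosen with earlier results of these data known. The result of 1 list gene was left out.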

Additional observations from a re-analysis of the deposited data

How the results depend on the processing

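Lower regions outnumbered higher ones under every alternative run. With at least 10 CpG sites, 331 lower and 5 higher regions remained (98.5% lower), with GD16 female medians of 15% and 1.8%. With a difference of at least 20 points, 235 lower and 2 higher regions remained (99.2% lower); the GD16 female median was 28.5% in the lower ones, and in the higher ones the medians were 32.3% in GD18 males and 0.0% in GD16 females. With a deposited FDR of at most 0.01, 961 lower regions remained (90.7% lower). These limits keep fewer regions by construction. An overlap of at least 1 bp in place of identical coordinates raised the regions shared with the high-fat female table from 183 to 562 and with the high-fat male table from 59 to 264; an overlap of at least 50% of both regions gave 429 and 183. In all, 17 values moved and 32 did not, including all those for regions of at least 50 bp, merging within 1000 bp and autosomes only.

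No paired analysis was possible because the files hold group means and no values per library; for the same reason no fit without a library was made. The depth behind each level, and so the precision of levels near 0, is unknown here, and regions under the authors' limits of difference and FDR were not analysed here.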

Other observations

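The number of regions behind the deposited FDR of the comparison described here was inferred as 1832. That is also the number of regions in the authors' table of high-fat against control females. For the regions that fell in that diet table the number was inferred in the same way as 1496, which is also the number of lower regions here.

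The female mean for the same coordinates was equal in the diet table and in the table described here at 164 of 183 regions, and the number of CpG sites at 166 of 183. The largest gap between the 2 female means was 5.9 percentage points.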
